A study of Mus musculus with 21 samples.

Results

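Gene expression in Glast+ cells of the mouse retina was compared between postnatal day 28 (P28), after the retina has matured, and postnatal day 14 (P14), about the time of eye opening. Glast, encoded by Slc1a3, is the glutamate transporter on the surface of Müller glia, and the antibody against it was used to pull these cells from dissociated retinas. The comparison rests on the arrays whose titles name Glast+ cells at P28 (2 arrays) and at P14 (3 arrays), which are 5 of the 21 arrays in the series and 4 of its 20 sample codes. All mice were of the C57BL/6 strain with no genetic change or treatment named, and sex and number of animals per sample are not given in the labels. Both ages went through the same sort, a biotin-conjugated anti-Glast antibody with anti-biotin magnetic microbeads, and each sample held 200000 to 500000 cells per the labels. The other groups were Glast+ cells at P7 and P21 (2 arrays each) and Notch1+ cells at P0, P3, P7 and P14 (3 arrays each). Beyond these 5 arrays, the P7 and P21 arrays place a gene's difference in its course with age, and all 8 groups set the estimate of spread.

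Müller glia are the radial glia of the retina. They span its full thickness, clear glutamate and potassium, recycle glutamine and retinoids for neurons, and supply lipids, and in the mouse they are born in the last wave of retinal cell production. After injury they become reactive, a state marked by raised Gfap and acute-phase proteins. A sort by 1 surface antigen can also bring along other cells, among them microglia, vessel cells, astrocytes and fragments of neurons, so markers of those cells were read beside each result.

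Each array carried 34312 transcript probes, and 12612 genes with a detected probe were tested. Levels are log2 normalized intensity, on which a difference of 1 means 2-fold, and a level of one gene cannot be set against that of another because probes differ in brightness. A gene was called when its p-value from limma, adjusted for all genes by the Benjamini-Hochberg method, was under 0.05. Both P28 arrays carry 1 sample code in their titles, so they were averaged and counted as 1 sample, whose spread had to be taken from the other groups. They correlated at r = 0.9963 and their difference had an SD of 0.203, the lowest of all pairs within groups, against 0.380 to 0.592 for the pairs at P14. The software found 67.4% and 71.6% of probes on the P28 arrays, against 69.4%, 73.8% and 70.2% on the P14 arrays. The p-values measure only the spread between these samples. All Glast+ arrays were scanned on 1 day, one after the other from P7 to P28, so scan order and age cannot be told apart.

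P28 and P14 cells differed in 389 of 12612 genes (3.08%), of which 196 (1.55%) were higher and 193 (1.53%) lower at P28. Their median size was 1.46 on the log2 scale, and 346 changed at least 2-fold. In 388 of the 389 the P28 arrays lay wholly above or below the P14 arrays, which was true without any test of 55.2% of all genes. The number of calls changed widely with the samples that set the spread and with the normalization. Counting the P28 arrays as 2 replicates gave 1931 calls (15.3%, 954 higher and 977 lower), among them 388 of the 389. With the spread taken from the Glast+ groups alone limma called 59 genes (47 of them among the 389). With the spread taken from P28 and P14 alone limma called 0, although 2277 genes had an unadjusted p under 0.05 there, against 2337 among all groups. Median scaling in place of quantile normalization left 5 calls. Single arrays also moved the count: it was 235 without the second P14 array and 755 without the third Notch1+ P14 array, which stood apart from its group, and the genes called lower numbered 121 without the first P14 array and 318 without the third. In these bulk samples, fewer cells of a type and less RNA per cell cannot be told apart. Of the 53 called genes picked for naming by the rule in the processing summary, none changed direction in any of 21 alternatives. Many of these alternatives could not change it. Some kept the levels and changed only the estimate of spread, the threshold or the samples outside these 2 groups. Leaving out 1 array cannot turn a gene whose P28 and P14 arrays do not overlap. Leaving out 1 P14 array ended some of the 53 calls: 11 without the first, 19 without the second and 6 without the third. The 11 included Rhou, Isl1, Lhx4, Cyp26b1, Igf2bp3, Ncstn, Tyrobp, Vwf, Mylip and Rpl32. Without the second, the same 11 were lost with Ivd, Ndufa2, Arl6ip1, Mcm4, Oasl2, Nr1h3, Mpp5 and Wnt5b, and the 6 included Ndufa2, Arl6ip1, Oasl2, Nr1h3 and Mpp5. A call below refers to the fit with P28 as 1 sample, and counts with P28 as 2 replicates are given beside it.

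**Figure D1:**
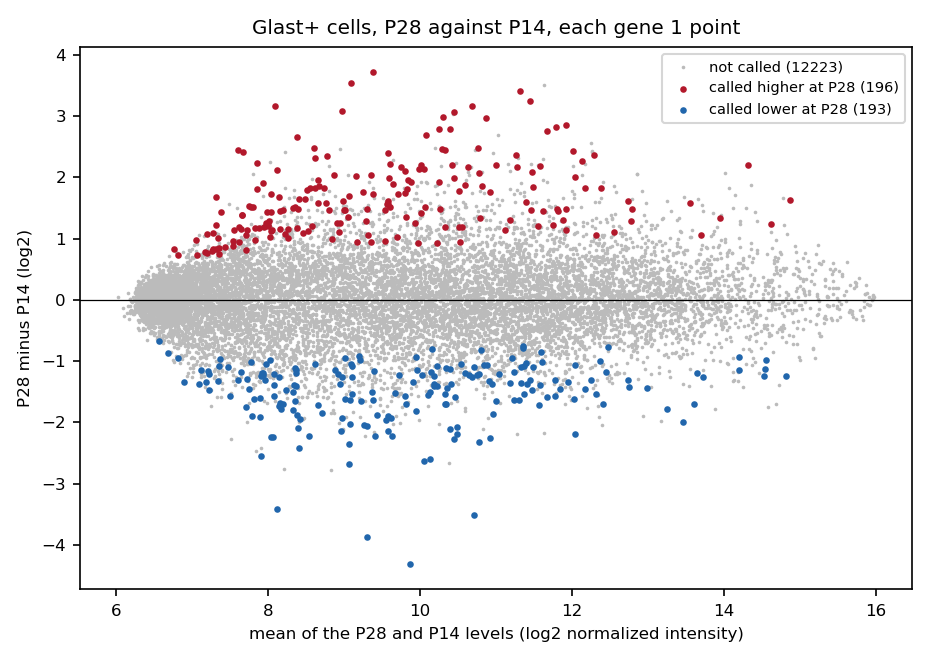
Difference between P28 and P14 (vertical, log2) against mean level (horizontal, log2 normalized intensity) for 12612 genes, 1 point each. Red points mark the 196 genes called higher at P28 and blue points the 193 called lower. Calls occur over the whole range of levels, and they run from -4.32 to 3.73.

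The genes that define Müller glia were strongly present at both ages, and none of them passed the test. Slc1a3 itself, the antigen of the sort, measured 15.85 on both P28 arrays, against 15.52, 15.54 and 15.80 on the P14 arrays. Glul, the glutamine synthetase of Müller glia, differed by 0.36, and Rlbp1, their retinaldehyde-binding protein, by 0.08. Aqp4, the water channel of glial endfeet, differed by 0.34, Sox9, a transcription factor of Müller glia, by 0.34, Vim, their intermediate filament protein, by -0.17, and the receptor Notch1 by -0.33. All 7 had adjusted p-values of at least 0.564. Other probes of these genes differed by 0.07 and 0.09 for Aqp4 and by -0.43 for Vim. Of 34 listed Müller glia genes 32 were measured, and all 32 were found on all 5 arrays. With limma 0 of the 32 were called, against 3.08% of all genes, and 6 had an unadjusted p under 0.05, as did 2337 of all 12612 genes. The list's median difference was 0.22, against -0.002 for all genes, and turned to -0.08 under median scaling, which moved the median of all genes by -0.173. The same number, 6, were called higher with P28 as 2 replicates (Abca8a, Fxyd1, Gpr37, Hes1, Slc38a3 and Timp3), against 7.56% of all genes. The largest of these was Abca8a, a lipid transporter of the ABC family, which measured 15.07 and 15.12 on the P28 arrays, against 13.61, 13.98 and 13.80 on the P14 arrays, a log2 difference of 1.30 (SE 0.46, adjusted p = 0.132). Kcnj10, the potassium channel of Müller glia, had no probe with a level here.

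Genes of cholesterol synthesis and uptake were the list with the most calls, and 6 of the 7 were higher at P28. This list, like all 43, was chosen with earlier results of these data known, so its rank and share of calls only describe. Cells make cholesterol through the mevalonate pathway, or take it up from lipoproteins. Of 24 listed genes 20 were measured, all found on all 5 arrays, with 6 called higher and 1 lower, against 1.55% and 1.53% of all genes (11 higher and 1 lower with P28 as 2 replicates, against 7.56% and 7.75%). The list's median difference was 0.97, against -0.002 for all genes, and 15 of the 20 had both P28 arrays above all P14 arrays, against 27.7% of all genes. Across all 21 alternatives the list's median stayed between 0.46 and 1.08, and its calls ranged from 0 to 11 higher. At P21 the values were near those at P14: the list's median at P21 minus P14 was 0.10 with 0 called by limma (10.6% of all genes were).

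Hmgcs1, the cytosolic HMG-CoA synthase at the head of the pathway, measured 15.25 and 15.21 on the P28 arrays, against 13.60, 13.75 and 14.65 on the P14 arrays, 2.35-fold higher at P28 (adjusted p = 0.0376). Fdps, which makes farnesyl diphosphate, measured 12.52 and 12.57 on the P28 arrays, against 11.25, 11.10 and 10.81 on the P14 arrays, 2.81-fold higher, and its other probe differed by 2.14. The squalene epoxidase Sqle measured 12.60 and 12.50 on the P28 arrays, against 11.52, 11.18 and 10.59 on the P14 arrays, and its other probe differed by 0.34. In each of these 3 genes the age groups did not overlap, as in 388 of the 389 called genes and 55.2% of all genes.

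Further along the pathway, Msmo1, the sterol C4-methyl oxidase, measured 12.70 and 12.64 on the P28 arrays, against 11.30, 10.92 and 11.33 on the P14 arrays, a log2 difference of 1.49 (SE 0.30, adjusted p = 0.0148). Hsd17b7, which acts at the same demethylation step, measured 9.85 and 9.80 on the P28 arrays, against 8.86, 8.88 and 8.90 on the P14 arrays, a smaller but tight difference of 0.94. The largest difference of the list was in Cyp51, the lanosterol demethylase, at 2.45, which missed the threshold with P28 as 1 sample (adjusted p = 0.0579) and had a second probe at 1.45. Stard4, a carrier of cholesterol within the cell, differed by 1.79 and was called only with P28 as 2 replicates. The exception was Nsdhl, another enzyme of C4 demethylation, which fell by 1.86 on its brightest probe. Its 2 other probes differed by 0.01 and 0.99, so the probes disagree. Hmgcs1, Sqle, Fdps, Cyp51 and Stard4 are named here after their values were seen.

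Sterol genes are known to be switched on by SREBP proteins bound to short sterol regulatory elements near gene starts, so the promoter windows of the called genes are shown. RefSeq windows (build GRCm38.p6) were given for 3 of the 6 genes called higher, Hmgcs1, Msmo1 and Hsd17b7. The letters TCACNCCA, a common form of the element, were searched on both strands of the 250 bases upstream of each start. They occur in 3.67% of 32851 mouse promoter windows of that length, in 2 of the 3 and in 2 of the 15 measured sterol genes with a window. The match is in capitals, 137 to 130 bases upstream in Hmgcs1 and 177 to 170 bases upstream in Msmo1. The windows lie at chr13:119690101-119690350 (+ strand) and chr8:64733579-64733828 (- strand), 5′ to 3′ along each gene.
Hmgcs1: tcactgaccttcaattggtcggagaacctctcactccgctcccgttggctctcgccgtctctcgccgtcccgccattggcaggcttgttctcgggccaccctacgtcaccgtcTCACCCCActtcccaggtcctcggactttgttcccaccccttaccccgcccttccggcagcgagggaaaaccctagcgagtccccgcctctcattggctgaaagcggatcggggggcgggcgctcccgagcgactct
Msmo1: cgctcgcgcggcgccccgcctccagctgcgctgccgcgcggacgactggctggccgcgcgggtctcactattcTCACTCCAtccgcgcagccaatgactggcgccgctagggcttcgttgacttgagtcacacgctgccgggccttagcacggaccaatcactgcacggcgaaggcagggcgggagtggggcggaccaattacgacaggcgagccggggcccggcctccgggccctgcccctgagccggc
A match of letters is a description and does not show binding, and Hsd17b7 held no match in its window. The Hmgcs1 and Msmo1 windows belong to genes that were 2.35-fold and 2.81-fold higher at P28.

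Few genes that move lipid out of cells or control its uptake were called. Of 28 measured genes of lipid transport, 1 was called higher and 2 lower, against 1.55% and 1.53% of all genes (4 and 3 with P28 as 2 replicates, against 7.56% and 7.75%), with a median of -0.08, near the -0.002 of all genes. Abca1, which exports cholesterol to lipoproteins, measured 7.76 and 7.71 on the P28 arrays, against 10.28, 10.44 and 10.49 on the P14 arrays, a log2 difference of -2.67 (SE 0.42, adjusted p = 0.004), and its P21 mean of 8.99 lay between them. Mylip, a ubiquitin ligase, measured 9.53 and 9.38 on the P28 arrays, against 11.45, 11.83 and 11.30 on the P14 arrays, 4.19-fold lower at P28 (adjusted p = 0.0459), and its other probe differed by -0.83. Abca1, Mylip and Abcg1 are known targets of the liver X receptors, the sterol-sensing nuclear receptors. They do not stand for the list, in which 13 of 28 genes had a value above 0. Abcg8, a sterol exporter on no list, was higher at P28 and is given below. Abcg1, a second cholesterol exporter, differed by -1.05 and was called only with P28 as 2 replicates. Nr1h3, which encodes liver X receptor alpha, measured 9.27 and 9.34 on the P28 arrays, against 7.85, 7.67 and 7.48 on the P14 arrays and was called, 3.11-fold higher. Apoe, the main apolipoprotein of Müller glia, differed by -0.27 and was not called. Abcg1 and Apoe are named here after their values were seen.

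Plin4 and Nr1h4 were among the 12 largest rises. Plin4, a coat protein of lipid droplets, measured 9.68 and 9.67 on the P28 arrays, against 6.30, 6.48 and 6.77 on the P14 arrays, a log2 difference of 3.16 (SE 0.25, adjusted p = 8.4e-06), and its P28 levels were above every other Glast+ array (found on 2 of the 3 P14 arrays). Nr1h4, the bile acid receptor FXR, measured 13.08 and 13.07 on the P28 arrays, against 10.87, 9.42 and 9.17 on the P14 arrays, 9.53-fold higher (adjusted p = 0.0052). In both genes the P28 arrays were clear of all P14 arrays, which the rule that chose the 12 required. The P21 means were 8.37 for Plin4 and 10.06 for Nr1h4. Ivd, an enzyme of leucine breakdown and another of the 12, was 8.35-fold higher by its brightest probe, but its other probe differed by 0.84.

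**Figure D2:**
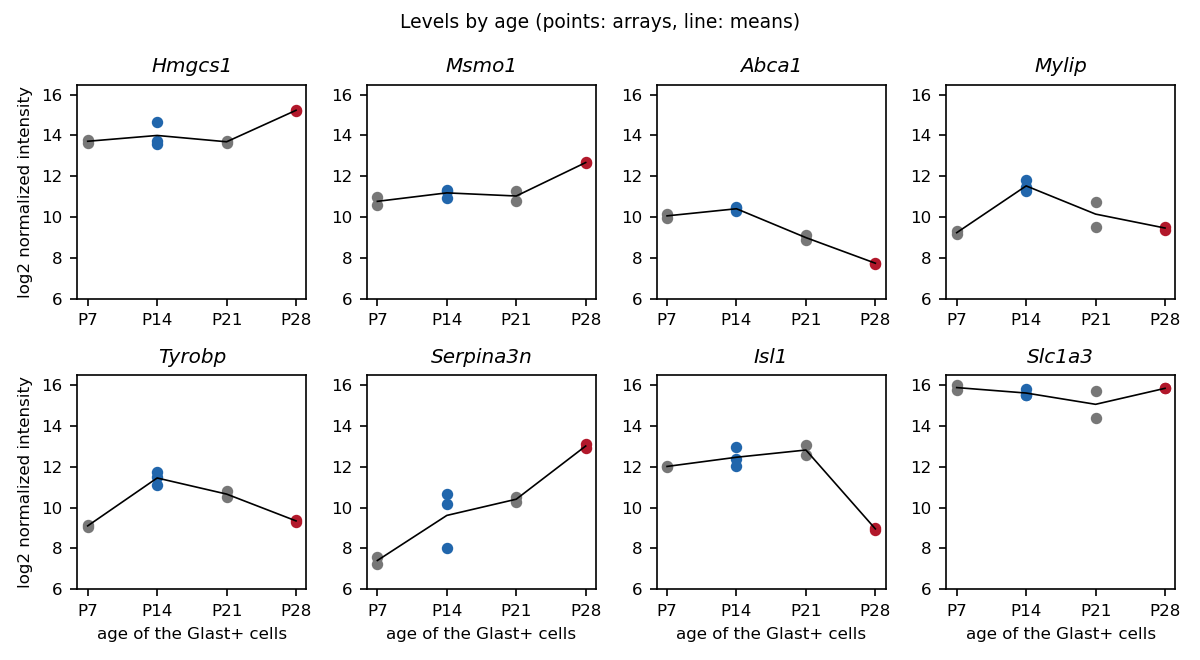
Levels of 8 genes (log2 normalized intensity, vertical) in Glast+ cells at P7, P14, P21 and P28, 1 point per array, with a line through the means. Hmgcs1 and Msmo1 are highest at P28, Abca1 is lowest there, Mylip and Tyrobp are highest at P14, Isl1 is low at P28 alone, and Slc1a3 stays high at every age.

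Of the genes listed for reactive gliosis 3 were higher at P28, while Gfap was not. In all, 25 genes of the gliosis list were measured, with 3 called higher and 0 lower, against 1.55% and 1.53% of all genes (7 and 0 with P28 as 2 replicates, against 7.56% and 7.75%, and 1 lower at an unadjusted p under 0.05). The median of the list was 0.31 and turned to -0.12 under median scaling, where all genes had a median of -0.173. Serpina3n, a secreted protease inhibitor, measured 13.14 and 12.90 on the P28 arrays, against 10.20, 8.0 and 10.65 on the P14 arrays, a log2 difference of 3.41 (SE 0.65, adjusted p = 0.0101). Its P14 arrays were far apart, and its P28 arrays were above all of them. Edn2, which encodes the peptide endothelin 2, measured 9.65 and 9.62 on the P28 arrays, against 7.91, 7.32 and 7.82 on the P14 arrays, 3.87-fold higher (adjusted p = 0.0029). Lcn2, an iron-binding acute-phase protein, measured 8.61 and 8.45 on the P28 arrays, against 7.23, 7.25 and 6.57 on the P14 arrays, a difference of 1.52. Gfap, the filament protein raised in reactive glia, had a second probe that differed by -0.12. Its brightest probe measured 8.42 and 8.19 on the P28 arrays, against 8.99, 7.34 and 10.70 on the P14 arrays, which overlap. Its difference of -0.71 was not called (adjusted p = 0.679), and it was 0.14 without the third P14 array.

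Defence genes gave single calls. Of 24 measured interferon and MHC class I genes, 1 was called higher and 0 lower, against 1.55% and 1.53% of all genes (5 and 0 with P28 as 2 replicates, against 7.56% and 7.75%, and 1 lower at an unadjusted p under 0.05), with a median of 0.36. It was Oasl2, an interferon-induced antiviral protein, at 11.61 and 11.43 on the P28 arrays, against 9.79, 8.69 and 8.68 on the P14 arrays, 5.52-fold higher (adjusted p = 0.0321). Of 17 measured complement genes, 1 was called higher and 2 lower, against the same shares of all genes. Among them Serping1, the inhibitor of the C1 complex, rose by 2.20, while C3ar1, the receptor for C3a, fell by 1.47. With P28 as 2 replicates 3 complement genes were higher and 5 lower. Serping1 measured 11.13 and 11.11 on the P28 arrays, against 9.26, 8.77 and 8.74 on the P14 arrays, and C3ar1 measured 7.49 and 7.53 on the P28 arrays, against 8.96, 8.90 and 9.07 on the P14 arrays. Neither gene overlapped between the ages, as was true of 388 of the 389 called genes and 55.2% of all genes.

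The largest rise of all was in Gna14, the alpha subunit of a G protein of the Gq class. It measured 11.17 and 11.31 on the P28 arrays, against 7.21, 7.42 and 7.92 on the P14 arrays, a log2 difference of 3.73 (SE 0.27, adjusted p = 6.3e-06), or 13.2-fold higher, with P21 at 8.90 and P7 at 6.29. Mal, a proteolipid of membrane rafts, measured 10.82 and 10.91 on the P28 arrays, against 7.13, 7.28 and 7.53 on the P14 arrays, 11.7-fold higher (adjusted p = 0.0163), and its other probe differed by 2.49. Both genes were low in every P14 array and higher at each later age. Rhou, a small GTPase of the cytoskeleton, was 9.0-fold higher, and Ctf1, the cytokine cardiotrophin 1, was 7.85-fold higher (adjusted p = 0.0297 for Rhou and 0.0046 for Ctf1). Rasa1, which turns Ras off, was 7.92-fold higher by its brightest probe and differed by 0.15 by its other probe. Ndufa2, a subunit of respiratory complex I, and Arl6ip1, a protein that shapes the endoplasmic reticulum, differed by 2.85 and 2.82. For Arl6ip1 the P14 arrays spread from 9.49 to 12.15.

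**Figure D3:**
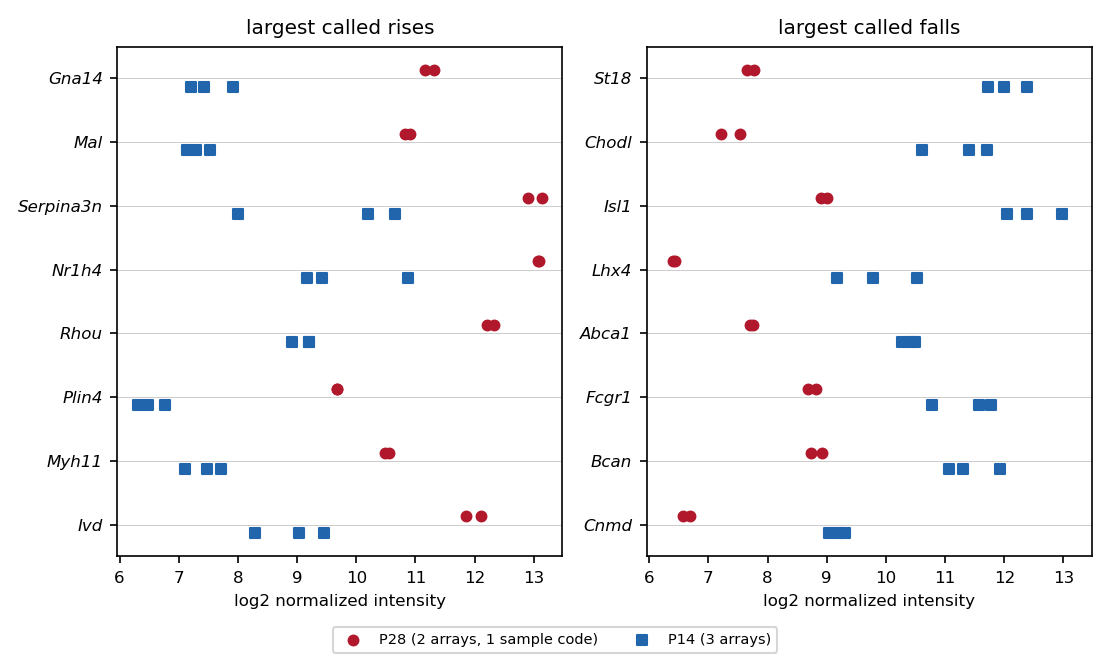
Levels (log2 normalized intensity, horizontal) of the 8 largest called rises (left panel) and the 8 largest called falls (right panel) at P28. Red circles are the 2 P28 arrays and blue squares the 3 P14 arrays. The ages do not overlap in any of the 16 genes, which the rule that chose them required.

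The 4 deepest falls were in St18, Chodl, Isl1 and Lhx4, genes known from neurons or their precursors. St18, a zinc-finger transcription factor, measured 7.78 and 7.65 on the P28 arrays, against 11.99, 12.38 and 11.73 on the P14 arrays, a log2 difference of -4.32 (SE 0.78, adjusted p = 0.0077). Isl1, the LIM-homeodomain factor of bipolar, cholinergic amacrine and ganglion cells, measured 8.90 and 9.01 on the P28 arrays, against 12.39, 12.97 and 12.05 on the P14 arrays, 11.4-fold lower (adjusted p = 0.0327). Its P21 mean was 12.82, so that P28 stood alone among the Glast+ ages. Lhx4, a LIM-homeodomain factor found in cone bipolar cells, measured 6.40 and 6.44 on the P28 arrays, against 9.78, 10.52 and 9.18 on the P14 arrays, 10.6-fold lower. Chodl, a membrane lectin known from motor neurons, was 14.6-fold lower, with P21 already down at 8.17. Of 22 measured neurogenic factors 1 was called lower (Isl1) and 0 higher, against 1.53% and 1.55% of all genes (3 and 0 with P28 as 2 replicates, against 7.75% and 7.56%), with a median of -0.40. Otx2, which directs photoreceptor and bipolar fate, differed by -2.20 and was called only with P28 as 2 replicates.

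Lists of mature retinal neurons held 1 call among rod, cone and bipolar markers. Of 30 measured rod genes 0 were called by limma (1 had an unadjusted p under 0.05 and 1 was called with P28 as 2 replicates), and the median was 0.34. Of 12 cone genes 0 were called, again with 1 at an unadjusted p under 0.05, and the median was 0.31. Of 16 bipolar genes Isl1 was the only call (1.53% of all genes were called lower), and the median was -0.15. At P21 minus P14 the same medians were 1.56 for rods, 2.40 for cones and 1.41 for bipolar cells, with 8, 10 and 9 genes called higher (5.58% of all genes were). The summed linear level of the rod genes was 398447 and 396601 on the P28 arrays, against 263852, 434662 and 183868 on the P14 arrays, and it was 806047 and 509835 on the P21 arrays. Rod RNA was thus present in the Glast+ samples at both ages, with the P28 arrays inside the P14 range. Its part in the differences above was not tested.

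Genes of microglia, the immune cells of the retina, had lower values at P28 in every measured member, though few passed the test. Of 23 listed genes 20 were measured, all 20 were found on all 5 arrays, and none had a value above 0 for P28 minus P14 (1 did under cyclic loess, under the authors' values and without the second P14 array). Only Ptprc and Tyrobp were called with P28 as 1 sample, 2 of 20 against 1.53% of all genes, and 12 were called lower with P28 as 2 replicates, against 7.75%. The median was -1.25, and it ran from -1.57 to -1.11 over the alternatives. In 17 of the 20 both P28 arrays were below all P14 arrays, against 27.5% of all genes. The summed linear level of the list was 218749 and 225997 on the P28 arrays, against 439773, 463524 and 322210 on the P14 arrays. The part of microglia in the other falls was not tested.

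Tyrobp, the adaptor of the microglial receptor TREM2, measured 9.28 and 9.41 on the P28 arrays, against 11.48, 11.75 and 11.13 on the P14 arrays, a log2 difference of -2.10 (SE 0.50, adjusted p = 0.033). Ptprc, the leukocyte antigen CD45, measured 6.85 and 6.84 on the P28 arrays, against 8.78, 8.90 and 8.53 on the P14 arrays, 3.72-fold lower (adjusted p = 0.0046), and its dimmer probe differed by -0.68. P21 lay between the ages, at 10.66 for Tyrobp and 8.08 for Ptprc, and the P7 means were near those of P28, at 9.10 for Tyrobp and 6.75 for Ptprc. Among the 12 largest falls, Fcgr1, an Fc receptor, was 6.18-fold lower, and Cd300c2, a receptor of myeloid cells, 5.14-fold lower. Fcgr1 measured 8.68 and 8.81 on the P28 arrays, against 11.57, 11.77 and 10.78 on the P14 arrays. The microglial markers did not move in step: Tmem119, which marks resident microglia, differed by -0.03, Cx3cr1, their fractalkine receptor, by -1.05, and Lyz2, the lysozyme of myeloid cells, by -2.67. Aif1, the microglial protein IBA1, differed by -2.10 and P2ry12, the ADP receptor of resting microglia, by -1.92, both called only with P28 as 2 replicates. These 5 were picked after their values were seen.

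Vessel genes had values above 0 in most members, with 1 endothelial call. Of 25 measured endothelial genes 21 had a value above 0 and 19 had both P28 arrays above all P14 arrays, against 27.7% of all genes, but only Vwf was called, against 1.55% of all genes called higher (6 higher and 2 lower with P28 as 2 replicates, against 7.56% and 7.75% of all genes). The median was 0.86 (0.43 to 1.01 over the alternatives). The list's summed linear level was 108089 and 109156 on the P28 arrays, against 51829, 52402 and 80399 on the P14 arrays. Vwf, the von Willebrand factor, measured 11.77 and 11.83 on the P28 arrays, against 8.76, 8.66 and 9.60 on the P14 arrays, a log2 difference of 2.79 (SE 0.70, adjusted p = 0.0428). Against the rest, the receptors Aplnr and Kdr, both known from growing vessels, differed by -2.02 and -1.57 and were called lower with P28 as 2 replicates. Among 14 genes of pericytes and smooth muscle, Myh11, the smooth muscle myosin, measured 10.56 and 10.48 on the P28 arrays, against 7.1, 7.48 and 7.72 on the P14 arrays, 8.5-fold higher (adjusted p = 0.0011), and the list's median was 0.35. The part of vessel cells in the other rises was not tested.

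**Figure D4:**
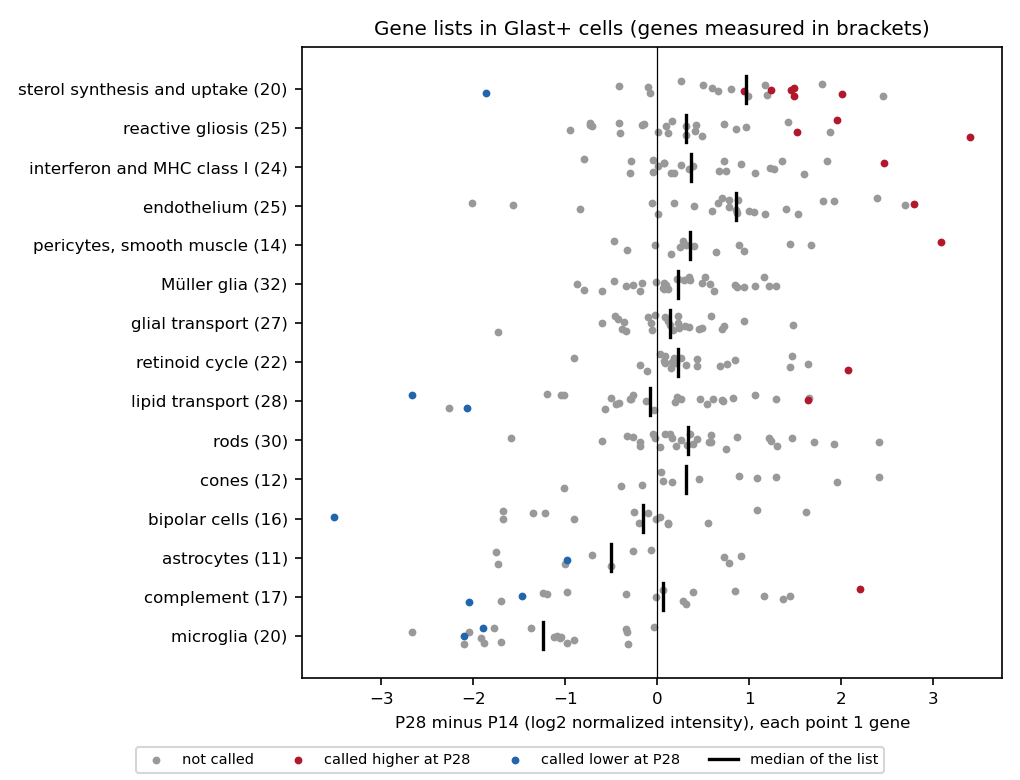
Difference between P28 and P14 (log2 normalized intensity, horizontal) for the measured genes of 15 lists, 1 point per gene, with the number measured in brackets. Red and blue points are genes called higher and lower at P28, grey points are genes that were not called, and black bars are medians. Sterol synthesis has the highest median at 0.97 and microglia the lowest at -1.25, with no microglial gene right of 0.

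The matrix and astrocyte lists held 1 call each, both lower. Of 33 matrix and basement membrane genes 1 was called, Bcan, which encodes the proteoglycan brevican, against 1.53% of all genes called lower (2 higher and 8 lower with P28 as 2 replicates, against 7.56% and 7.75%, median -0.009). Bcan measured 8.93 and 8.74 on the P28 arrays, against 11.30, 11.06 and 11.93 on the P14 arrays, 6.05-fold lower, and its other probe differed by -1.06. Cnmd, which encodes the vessel-growth inhibitor chondromodulin, and Ecrg4, a secreted peptide precursor, are in neither list and were among the 12 largest falls, at 5.84-fold and 4.81-fold lower. Of 11 astrocyte genes 1 was called lower (4 lower and 1 higher with P28 as 2 replicates, against 7.75% and 7.56% of all genes), with a median of -0.51. It was S100b, a calcium-binding protein of glia, at 7.53 and 7.55 on the P28 arrays, against 8.48, 8.26 and 8.81 on the P14 arrays. Gja1, the gap junction protein connexin 43, measured 11.35 and 11.62 on the P28 arrays, against 13.10, 12.99 and 13.55 on the P14 arrays, a log2 difference of -1.73 (SE 0.55, adjusted p = 0.0951), so that it missed the threshold with P28 as 1 sample. The astrocyte list's summed level was 22914 and 23430 on the P28 arrays, against 56118, 56850 and 74574 on the P14 arrays, and the part of astrocytes in these falls was not tested.

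Notch signalling genes, which keep glia from neuronal fate, showed 2 falls among 28 measured, against 1.53% of all genes, with a median of -0.01 (0 higher by limma; 1 had an unadjusted p under 0.05 and 1 was called higher with P28 as 2 replicates). Mfng, a sugar transferase that tunes Notch receptors, measured 10.71 and 10.58 on the P28 arrays, against 12.28, 12.06 and 11.68 on the P14 arrays, a log2 difference of -1.36 (SE 0.24, adjusted p = 0.0063), with its other probe at -0.27. Ncstn, the nicastrin subunit of the gamma-secretase that cuts Notch, measured 12.14 and 12.05 on the P28 arrays, against 12.86, 12.92 and 12.80 on the P14 arrays, a difference of -0.76. Hes1, a direct Notch target, differed by 1.07 in the other direction and was called only with P28 as 2 replicates. Of the progenitor list, Igf2bp3, an RNA-binding protein of fetal tissue, was 3.62-fold lower (adjusted p = 0.0426), with P7 at 11.42 and P21 at 8.03. Its other probe differed by -2.41.

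Cell cycle genes gave 1 call. Of 29 mitosis genes 0 were called by limma, against 3.08% of all genes, and 4 had a value above 0. The median was -0.29 (-0.34 to 0.10 over the alternatives). An unadjusted p under 0.05 was reached by 6, as by 2337 of all 12612 genes. With P28 as 2 replicates 4 were called lower, against 7.75% of all genes. The largest difference was that of Cdk1, the mitotic kinase, which measured 7.39 and 7.15 on the P28 arrays, against 9.24, 9.16 and 8.33 on the P14 arrays (adjusted p = 0.0698), and whose other probe differed by 0.06. Mcm4, part of the replication helicase, was the 1 call among 27 replication genes (1.55% of all genes were called higher) and was 2.17-fold higher. Most of its list went the other way, with 8 of 27 above 0 and a median of -0.23. All 7 inhibitors of cyclin-dependent kinases had values above 0 (median 0.55; 6 of 7 under median scaling and with the mean of a gene's probes), and 0 were called, also with P28 as 2 replicates and at an unadjusted p under 0.05.

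Single calls came from further lists. Cyp26b1, which breaks down retinoic acid, measured 11.70 and 11.94 on the P28 arrays, against 9.21, 9.53 and 10.50 on the P14 arrays, 4.21-fold higher (adjusted p = 0.0282). It was the 1 call among 22 genes of retinoid handling, against 1.55% of all genes called higher. Clock, the core clock transcription factor, was 3.63-fold higher by its brightest probe, while its 2 other probes differed by -0.64 and 0.04. Among stress genes, Nqo1, a quinone reductase, was 2.34-fold higher (other probe -0.10), and Fosl1, a member of the AP-1 family, 2.69-fold higher. Wnt5b, a secreted Wnt ligand, was 3.06-fold higher, and Mpp5, a scaffold of the apical Crumbs complex, 1.92-fold higher. In the other direction, Tmsb10, which binds actin monomers, was 3.0-fold lower (other probe 0.08). Each of these genes had both P28 arrays on one side of all P14 arrays, as had 388 of the 389 called genes. Without any test this held for 55.2% of all genes.

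Lists of energy metabolism, synapses and chromatin held no call with P28 as 1 sample. Glycolysis (23 genes), oxidative phosphorylation (29), synaptic vesicles (22) and chromatin factors (29) had medians of -0.07, -0.18, 0.07 and 0.005. At an unadjusted p under 0.05 they held 2, 3, 2 and 3 genes, against 2337 of all 12612 genes. The genes with the largest difference were Pfkp, a phosphofructokinase, at 1.21 (other probes 0.03 to 0.77), Ndufb5, a complex I subunit, at -1.14, Cplx1, a regulator of vesicle fusion, at -1.25, and Gadd45b, a stress-induced gene, at 1.19. The first 3 were called with P28 as 2 replicates (15.3% of all genes were) and Gadd45b was not. Of all 29 measured complex I subunit genes, a family picked after its values were seen and only in part on the list, 2 were called higher (6.9%, against 1.55% of all genes) and 0 lower, with a median of -0.008. They were Ndufa2, described above, and Ndufa13, which was 3.02-fold higher by its brightest probe. The other probe of Ndufa13 differed by 0.14.

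TGF-beta, growth factor, red cell, lens and pigment epithelium lists likewise held no call. Of all 12612 genes 3.08% were called, and 2337 had an unadjusted p under 0.05. Of 29 genes of TGF-beta and BMP signalling 0 were called by limma, and 11 had an unadjusted p under 0.05. With P28 as 2 replicates 4 were higher and 4 lower, against 7.56% and 7.75% of all genes. Id1, a target of BMP signalling, measured 13.89 and 13.88 on the P28 arrays, against 12.55, 12.48 and 10.46 on the P14 arrays (adjusted p = 0.128). Of 35 growth factor genes 0 were called, 9 had an unadjusted p under 0.05, and Igf1, insulin-like growth factor 1, measured 8.24 and 8.40 on the P28 arrays, against 11.64, 9.83 and 9.97 on the P14 arrays (adjusted p = 0.133), with its other probe at -0.25. Red cell genes (5 measured, 0 called, 0 at an unadjusted p under 0.05) had a median of 0.61, and the haemoglobin gene Hba-a1 measured 12.53 and 12.62 on the P28 arrays, against 10.22, 12.25 and 8.58 on the P14 arrays, so that the P28 arrays lay above P14 arrays that were themselves far apart. The 12 lens crystallin genes had a median of -0.08 and the 13 genes of the pigment epithelium one of -0.07, with 1 and 2 at an unadjusted p under 0.05.

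The P21 arrays split the 2 weeks into 2 steps, which share arrays with the difference between P28 and P14. P21 differed from P14 in 1337 genes (10.6%), with 704 higher (5.58%) and 633 lower (5.02%), and P28 differed from P21 in 601 (4.77%), with 249 higher (1.97%) and 352 lower (2.79%).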

How the data were processed

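The arrays are single-channel mouse long-oligonucleotide arrays hybridized with labelled cRNA amplified from sorted cells. Per the file headers, images were read with GenePix Pro 4.1.1.4 at 635 nm, and the deposited scanner files hold spot and background intensity in scanner units with flags for spots not found. The deposited table of the authors' processed values holds intensity on a linear scale; the tool behind it is not given in the sources used here. For nearly all bright spots those values equal spot minus background times a factor per array.

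Intensities were background-corrected (normexp, offset 50), restricted to the 34312 probes for transcripts, made equal in distribution by quantile normalization, and log2-transformed. Probes found on every array of at least 1 of the 8 groups were kept (25264), named through accessions with a RefSeq table of GRCm38.p6 (22987 probes had 1 symbol, 0 several, 11325 none), and the brightest probe per gene was used. The number of arrays limits the precision. A limma 3.58.1 model (R 4.3.3) of group means was fitted to 20 samples with 12 residual degrees of freedom. The lone P28 sample is assumed to vary like the other groups. The code was tested on simulated data. Values set against each other are P28 minus P14.

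Named genes are 9 markers, the 12 largest called differences in each direction whose arrays do not overlap, and per list the called genes of smallest adjusted p, up to 3 in each direction, or the largest difference where none was called; some genes the rule names are not reported here. The members and the 43 lists were chosen with earlier results of these data known. The labels do not say that replicate numbers pair samples. Over the 2 shared numbers, deviations from the group means correlated at 0.0212 and 0.0225. The P28 arrays carry 1 sample code, so these values cannot show whether samples were paired. Alternatives covered replicates, samples in the fit, normalization, background, filters, probes, prior and scan day.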

Additional observations from a re-analysis of the deposited data

How the results depend on the processing

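The count of called genes (389, 196 higher and 193 lower) changed with how the spread was estimated and with the normalization. With both P28 arrays as 2 replicates it was 1931 (954 higher, 977 lower), and with the replicate number as a block as well, 1603 (764 higher, 839 lower). With the Glast+ groups only it was 59 (27 higher, 32 lower), and with P28 and P14 only limma called 0 (0 higher, 0 lower), with 2277 genes at an unadjusted p under 0.05; both fits have fewer samples. Quantile normalization over the Glast+ arrays alone, which also fits those groups only, gave 80 (37 higher, 43 lower). Among normalizations, median scaling gave 5 (3 higher, 2 lower), cyclic loess 87 (41 higher, 46 lower), and the authors' values 200 (118 higher, 82 lower). Median scaling shifted the median of all genes by -0.173, and the authors' values moved it to 0.121. Scan day as a random block gave 737 (357 higher, 380 lower). Leaving out 1 array at a time gave 235 to 755 calls (122 to 359 higher, 113 to 396 lower). The lowest came without the second P14 array and the highest without the third Notch1+ P14 array, a setting chosen after seeing the data. Counts without background correction, without or with another probe filter, with the mean of a gene's probes, with a trended prior and with a 2-fold minimum stayed within 1.5 times. Many alternatives could not change the direction of a called gene, as described above. None of the 53 called named genes changed direction in any alternative. The uncalled Rlbp1 and Gfap did: Rlbp1 was -0.26 under median scaling and ran from -0.09, without the third P14 array, to 0.18 with 1 array left out, and Gfap from -1.55, without the second P14 array, to 0.14 without the third. The cause of these shifts was not tested. Dim probes, with levels near background, limit what can be seen of low genes.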

Other observations

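Replication-dependent histone genes, a family picked after its values were seen, had higher values at P28. Of 53 measured genes 52 had a value above 0, 8 were called higher (15.1% against 1.55% of all genes) and 0 lower, and 26 were called higher with P28 as 2 replicates, against 7.56% of all genes. The median difference was 0.88 (0.49 to 1.04 over the alternatives, with 46 genes above 0 without the third P14 array and 47 under median scaling), while the P21 minus P14 median was 0.05. H4c11, a histone H4 gene, measured 13.24 and 13.31 on the P28 arrays, against 11.07, 11.75 and 10.20 on the P14 arrays, 4.82-fold higher (adjusted p = 0.033). H2bc6, a histone H2B gene, measured 10.35 and 10.40 on the P28 arrays, against 7.95, 8.04 and 9.03 on the P14 arrays, 4.09-fold higher. Copies of these genes are nearly identical in sequence, so a probe may read several of them, and the members are not independent. Ribosomal protein genes had values below 0 in 61 of 77, with a median of -0.33 (-0.78 to -0.31 over the alternatives), 4 called lower (1.53% of all genes were) and 0 higher, while 6289 of all 12612 genes had a value above 0. The family was also picked after its values were seen. The 4 called were Rpl17, Rpl32, Rpl36 and Rps3a1, and Rpl17 measured 13.97 and 13.85 on the P28 arrays, against 15.25, 15.08 and 15.14 on the P14 arrays.

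The following called genes are on no list and were picked singly after their values were seen, so they say nothing of a group. Cyp27a1, which starts the acidic pathway of bile acid synthesis, measured 12.43 and 12.40 on the P28 arrays, against 10.46, 10.38 and 10.85 on the P14 arrays, 3.6-fold higher (adjusted p = 0.0027), though its other probe differed by 0.28. Abcb11, the bile salt export pump, measured 8.42 on both P28 arrays, against 7.26, 7.35 and 7.15 on the P14 arrays, 2.24-fold higher. Abcg8, a sterol exporter, was 2.29-fold higher, and Fabp6, the ileal bile acid binding protein, 1.73-fold higher. Trpv4, an ion channel known from Müller glia as a sensor of swelling, measured 9.69 and 9.77 on the P28 arrays, against 8.44, 8.10 and 8.27 on the P14 arrays, 2.75-fold higher. Selenop, the selenium carrier selenoprotein P, measured 12.49 and 12.45 on the P28 arrays, against 14.45, 14.46 and 14.46 on the P14 arrays, 3.97-fold lower (adjusted p = 0.0011). All 3 measured Naip genes, sensors of bacterial proteins that share much of their sequence, were called lower (1.53% of all genes were), at -1.57 for Naip2, -1.41 for Naip5 and -1.38 for Naip6. Their median difference was 2.37 at P14 minus P7 and -1.18 at P21 minus P14. The microglial gene Tyrobp likewise had its highest mean at P14, with 9.10 at P7, 11.45 at P14, 10.66 at P21 and 9.34 at P28, and the part of microglia in the Naip values was not tested.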
